A study of Mus musculus with 30 samples.

Results

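The 22 mouse glioblastomas that carried 1 of 6 variants of the epidermal growth factor receptor EGFR were pooled and set against the 3 that carried wild-type EGFR, and genes were sought whose level moved the same way in all 6 variants. The 25 libraries compared are those of the 30 in the series that were labelled with a receptor form, and the label of each sample placed it. The variants were A289I (5 libraries), A289V (4), R108G (3), R108K (4), R222C (3) and T263P (3), each named by the amino acid of the receptor, its position and the amino acid that replaced it. Wild-type EGFR had 3 libraries. All were bulk tumours of the mouse cortex collected at postnatal day 70, sequenced as polyadenylated RNA from stranded libraries, 1 library per sample. How the tumours were induced, which cells took up the receptor and whether the introduced receptor was of the mouse or the human sequence are not given in the sources used here. The design text speaks of several mice per variant, and the labels give no mouse for a library, so the p-values measure the spread between these samples only. In bulk tissue, fewer cells of a type and less RNA per cell cannot be told apart.

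EGFR is a tyrosine kinase of the cell surface that binds EGF, amphiregulin and related ligands with its extracellular part, pairs with a second receptor of its family and switches on the RAS and ERK cascade and the PI3K and AKT cascade. In human glioblastoma its gene is often amplified, and changes of single amino acids gather in the extracellular part, where the changes studied here lie. Some, A289V among them, are known to make the receptor signal at low levels of ligand. In the brain, EGFR signalling is best known in neural progenitors and in the oligodendrocyte lineage, which runs from oligodendrocyte precursor cells (OPC) to myelin-forming cells.

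RPM stands for the deposited normalised counts, scaled by 1 constant so that a library sums to about 1000000. Recovered read totals were 2784129 to 24475215 in the variant libraries and 8078757 to 12950869 in the wild-type EGFR libraries. The tumours fitted their label: across all tumours the glial lineage gene Olig2 lay between 112 and 606 RPM, against 46.3 and 55.03 RPM in the 2 normal cortex libraries, and the division gene Mki67 between 57.8 and 368 RPM, against 2.41 and 1.13 RPM. Wild-type EGFR libraries 1 and 2 carry library numbers below 20 and library 3 a number from 20 to 37. Of the variant libraries, 3 have numbers below 20, 11 from 20 to 37 and 8 above 37, where no wild-type EGFR library lies. Reads of Rn45s, a ribosomal RNA gene, made up 2.47% to 4.57% in the variants with numbers from 20 to 37 and 3.64% in wild-type EGFR library 3. They made up 0.248% to 0.343% in the variants below 20 and 0.165% and 0.168% in wild-type EGFR libraries 1 and 2. The 3 wild-type EGFR libraries differed from each other. The receptor tyrosine kinase gene Met was at 4610 and 3853 RPM in wild-type EGFR libraries 1 and 2 and at 3.51 RPM in library 3. The variant libraries had 1.99 to 437 RPM of Met, with a median of 10.5, so for this gene libraries 1 and 2 stood apart. Interferon response genes were low in wild-type EGFR library 3. The medians of gene groups that moved with a single wild-type EGFR library are also given without that library.

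The receptor gene itself did not separate the groups. Egfr (mm10 chromosome 11, 16752203 to 16918158) ran from 17.5 through a median of 298 to 2790 RPM in the variant libraries, against 115, 209 and 393 RPM in the wild-type EGFR libraries. The variant libraries lay on both sides of the wild-type EGFR range, with 9 above and 5 below all 3. The 3 tumours labelled mCherry, a fluorescent protein, in place of a receptor form had 30.9, 22.1 and 35.4 RPM of Egfr. R108G library 1 lay below them at 17.5 RPM, and R108G library 3 and T263P library 2 had 52.3 and 52.1 RPM. Whether Egfr reads came from the mouse's own gene, the introduced receptor or both was not determined. The log2 difference of variants minus wild-type EGFR was 0.35 ± 0.92 (SE, limma adjusted p = 0.954, 95% interval -1.54 to 2.23). It was -0.64 with numbers from 20 to 37 alone and -0.55 against wild-type EGFR library 3 alone. The means were 557 ± 130 RPM in A289I (SD, n = 5), 270.4 ± 221 RPM in A289V (n = 4), 267 ± 403 RPM in R108G (n = 3), 319 ± 221.8 RPM in R108K (n = 4), 1058 ± 1503 RPM in R222C (n = 3) and 392 ± 478 RPM in T263P (n = 3), against 239 ± 141 RPM in wild-type EGFR (n = 3). Without the 3 variant libraries of lowest Egfr, limma still called no gene in the pooled comparison.

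No gene passed the pooled comparison. The filter kept 15660 genes (1 RPM or more in 3 or more of the 25 libraries). On these, limma on log2(RPM + 1) called 0 higher (0%) and 0 lower (0%) at an adjusted p under 0.05, and the lowest adjusted p was 0.160. At an unadjusted p under 0.05 there were 390 higher (2.49%) and 480 lower (3.07%), 5.56% in all. The median SE of a gene was 0.293 on the log2 scale, so that small differences were hard to resolve with 3 wild-type EGFR libraries. The other fits did make calls. edgeR on the recovered reads called 2 higher (0.0128%) and 49 lower (0.313%), all 51 in the same direction in the 6 variants. DESeq2 called 15 higher (0.0958%), 2 of them Y-linked, and 23 lower (0.147%). limma with a weight for each library called 17 higher (0.109%) and 17 lower (0.109%). Of the calls of edgeR and DESeq2, 25 were shared (2 higher, 23 lower), 49.0% of edgeR's and 65.8% of DESeq2's.

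A mean on the same side of wild-type EGFR in all 6 variants was common. It was seen in 2039 genes above (13%) and 2025 below (12.9%). The 6 differences share the 3 wild-type EGFR libraries, so 1 odd wild-type EGFR library moves all 6 of them together. In 6 genes (0.0383%) every variant library lay above every wild-type EGFR library, namely Colgalt2, Usp53, Bcl9l, Pcdhb4, B4galnt3 and Fam109b. In 6 others (0.0383%) every variant library lay below every one, namely Hebp2, Psmc3ip, Tceb1, Cetn3, Ndufaf2 and Arl10. Apart from Colgalt2, Usp53, Bcl9l and Hebp2, these were named after their values were seen. With random group labels, a gene would separate fully in a given direction in 1 of 2300 arrangements of the labels. Over all genes tested, both counts of 6 are about what that chance gives. A lack of overlap alone therefore does not set a gene apart from chance. The genes described next are the 12 of smallest p in each direction with 1 sign in all 6 variants and, in whichever group was higher, a mean of 5 RPM or more. None of the 24 passed with limma.

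**Figure D1:**
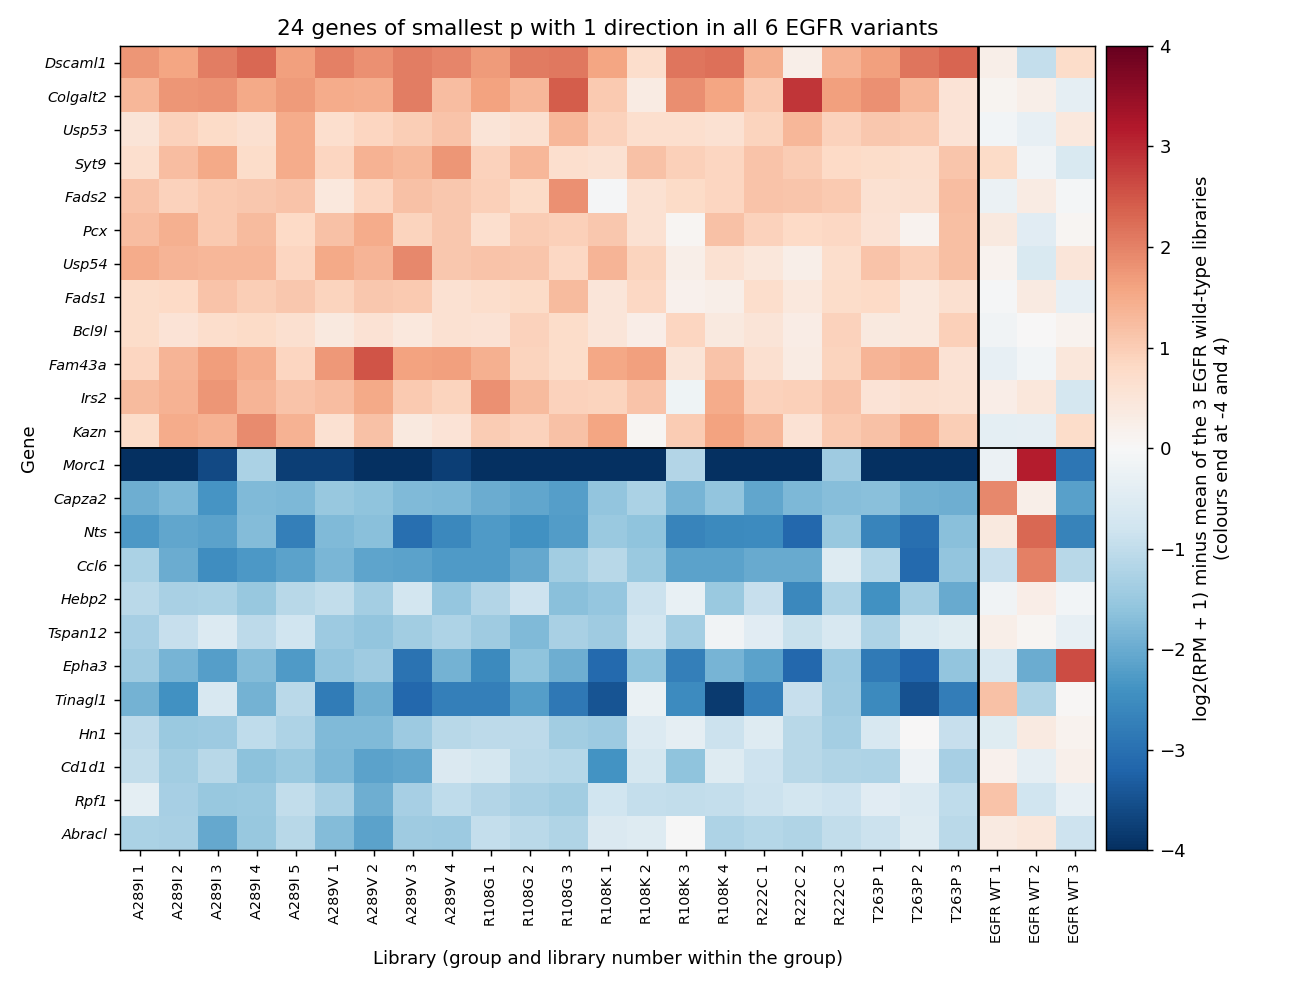
Difference of each library from the mean of the 3 wild-type EGFR libraries, on log2(RPM + 1), for the 24 genes of smallest p with 1 direction in all 6 variants (rows; 12 higher above the line, 12 lower below it). The 22 variant libraries stand left of the vertical line and the 3 wild-type EGFR libraries right of it. In the higher rows most variant libraries are red, and in the Morc1, Nts, Ccl6 and Epha3 rows 1 wild-type EGFR library is far above the other 2.

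Fads2, Fads1, Pcx and Irs2 of the higher genes, and Acacb, are described first. They were set together after their values were seen, on no gene list and with no test of enrichment. Fads2 and Fads1, neighbours on chromosome 19, encode the front-end desaturases that make long polyunsaturated fatty acids. Pcx encodes pyruvate carboxylase, which feeds the citric acid cycle with oxaloacetate, and Irs2 an adaptor between the insulin receptor and PI3K. Acacb, which encodes the acetyl-CoA carboxylase of the mitochondrial surface, was named because its smallest difference in any variant was among the 6 largest. Sterols and insulin are known to raise or lower fatty acid genes through SREBP factors, which bind sterol response elements beside CCAAT and GC boxes, so the RefSeq promoter windows (GRCm38.p6, 250 bases before the start) of Fads2, Acacb and Irs2 are shown. Capitals mark matches, on either strand, of CCAAT and of the GC box GGGCGG. Starts are those of RefSeq, and the window of Fads2 overlaps the GENCODE span of its gene. The window of Acacb lies wholly inside the GENCODE span of its gene (114146535 to 114250761). It is therefore not the stretch before the GENCODE start and may not be the promoter in use here. The windows are chr19:10101504-10101753 (minus strand), chr5:114165268-114165517 (plus strand) and chr8:11008930-11009179 (minus strand).
Fads2: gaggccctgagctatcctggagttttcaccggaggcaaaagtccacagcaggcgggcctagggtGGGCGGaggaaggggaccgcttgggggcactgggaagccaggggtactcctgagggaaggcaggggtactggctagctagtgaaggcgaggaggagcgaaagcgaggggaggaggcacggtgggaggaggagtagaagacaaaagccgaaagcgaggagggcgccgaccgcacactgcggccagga
Acacb: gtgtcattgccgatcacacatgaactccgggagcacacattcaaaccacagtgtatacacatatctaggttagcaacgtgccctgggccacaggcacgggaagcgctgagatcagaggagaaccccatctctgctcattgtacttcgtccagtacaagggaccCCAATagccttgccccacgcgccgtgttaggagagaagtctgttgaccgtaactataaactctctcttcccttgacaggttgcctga
Irs2: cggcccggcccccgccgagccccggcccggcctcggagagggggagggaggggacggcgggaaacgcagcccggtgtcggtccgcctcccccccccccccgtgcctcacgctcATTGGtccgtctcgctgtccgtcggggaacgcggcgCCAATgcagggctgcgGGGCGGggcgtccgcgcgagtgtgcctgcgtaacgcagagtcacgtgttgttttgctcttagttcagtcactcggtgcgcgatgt
The sterol response element TCACNCCAC had no match in the 3 windows, and 1.05% of 32851 RefSeq promoter windows of this length hold one. Fads2 held 1 GC box, Acacb 1 CCAAT and Irs2 2 CCAAT and 1 GC box, against 33.8% of all windows with a CCAAT and 32.7% with a GC box.

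Fads2 (chromosome 19, 10062765 to 10101746) ran from 90.1 through 185 to 327 RPM in the variants, against 78.2, 116 and 87.3 RPM in wild-type EGFR. All but 1 of the 22 variant libraries lay above all 3 wild-type EGFR libraries. The log2 difference was 0.92 ± 0.22 (SE, limma adjusted p = 0.402; DESeq2 adjusted p = 0.0157, edgeR 0.147). It was 0.28 with numbers below 20 alone and 1.04 with numbers from 20 to 37 alone. Fads1 (10182888 to 10196877) ran from 178 through 265 to 383 RPM in the variants, against 153, 201 and 126 RPM in wild-type EGFR. Its log2 difference was 0.75 ± 0.19 (limma adjusted p = 0.415, DESeq2 0.0347). Both genes were above wild-type EGFR in every variant, least in R108K (0.54 for Fads2 and 0.44 for Fads1) and most in R108G for Fads2 (1.17) and A289I for Fads1 (0.94).

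Pcx (chromosome 19, 4510472 to 4621752) had 22.4 to 60.4 RPM in the variants, with a median of 42.6, against 27.8, 14.98 and 22.3 RPM in wild-type EGFR. Irs2 (chromosome 8, 10984681 to 11008458) had 11.5 to 49.5 RPM in the variants, with a median of 30.4, against 16.1, 18.5 and 7.72 RPM in wild-type EGFR. Of the variant libraries, 20 lay above all wild-type EGFR libraries for Pcx and 21 for Irs2. The log2 differences were 0.93 ± 0.23 for Pcx and 1.08 ± 0.28 for Irs2 (SE, limma adjusted p = 0.415 and 0.452), and DESeq2 called Pcx (adjusted p = 0.0283) but not Irs2 (0.0578). Acacb ran from 5.44 through 22.3 to 102 RPM in the variants, against 2.89, 2.40 and 15.9 RPM in wild-type EGFR. Its log2 difference of 1.95 ± 0.56 was 2.69 without wild-type EGFR library 3 and 0.48 against that library alone (limma adjusted p = 0.556 over all 25 libraries). Cholesterol synthesis, a neighbouring pathway, was higher in 14 of 18 genes, with none called and a median difference of 0.24, against 52.4% and 0.02 over all genes tested. Cyp51, an enzyme of its late steps, was at 0.42 ± 0.18 (SE, unadjusted p = 0.0256).

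Dscaml1, which encodes a neural cell adhesion molecule of the immunoglobulin family, had the smallest p of all genes. It lies on chromosome 9 (45426628 to 45753712) and ran from 13.7 through 45.6 to 61.8 RPM in the variants, against 13.7, 5.51 and 19.96 RPM in wild-type EGFR. Of the 22 variant libraries, 20 lay above all 3 wild-type EGFR libraries. The means were 44.1 ± 12.6 RPM (SD, n = 22) and 13.1 ± 7.24 RPM (n = 3), a log2 difference of 1.77 ± 0.33 (SE, limma adjusted p = 0.160; edgeR 0.0265, DESeq2 0.000199). It was 1.02 in R222C and 1.65 to 2.04 in the other variants. The 3 tumours labelled mCherry, a fluorescent protein, in place of a receptor form had 50.7, 5.43 and 64.8 RPM, so that 2 of the 3 were in the range of the variants.

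Colgalt2, which encodes a galactosyltransferase of collagen (chromosome 1, 152399830 to 152510695), ran from 6.37 through 16 to 41.5 RPM in the variants, against 5.29, 5.87 and 3.59 RPM in wild-type EGFR. The groups did not overlap. The log2 difference was 1.54 ± 0.32 (SE, limma adjusted p = 0.231; edgeR 0.0486, DESeq2 0.00113), between 1.21 in R108K and 1.85 in R222C. It was 0.79 with numbers below 20 alone and 1.93 with numbers from 20 to 37 alone. Dscaml1 and Colgalt2 were the only higher genes that edgeR called. Usp53 and Usp54, of the ubiquitin peptidase family, differed by 0.87 ± 0.20 and 1.05 ± 0.26 (limma adjusted p = 0.349 and 0.415). For Usp53 the variants spanned 22.3 to 45.2 RPM, against 11.98 to 21.1 RPM in wild-type EGFR. Bcl9l, a coactivator of Wnt and β-catenin signalling, spanned 25.9 to 42.9 RPM in the variants, against 19.3 to 23.9 RPM in wild-type EGFR (difference 0.60 ± 0.15). The other genes of the 12 were Syt9, a calcium sensor of vesicle release (1.04), Fam43a (1.22) and Kazn, a protein of cell junctions (1.07). All 12 had the same sign with numbers below 20 alone and with numbers from 20 to 37 alone. DESeq2 called 9 of them and the weighted limma fit 7, but the genes were picked by their p in the same contrast, so these counts are a description.

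**Figure D2:**
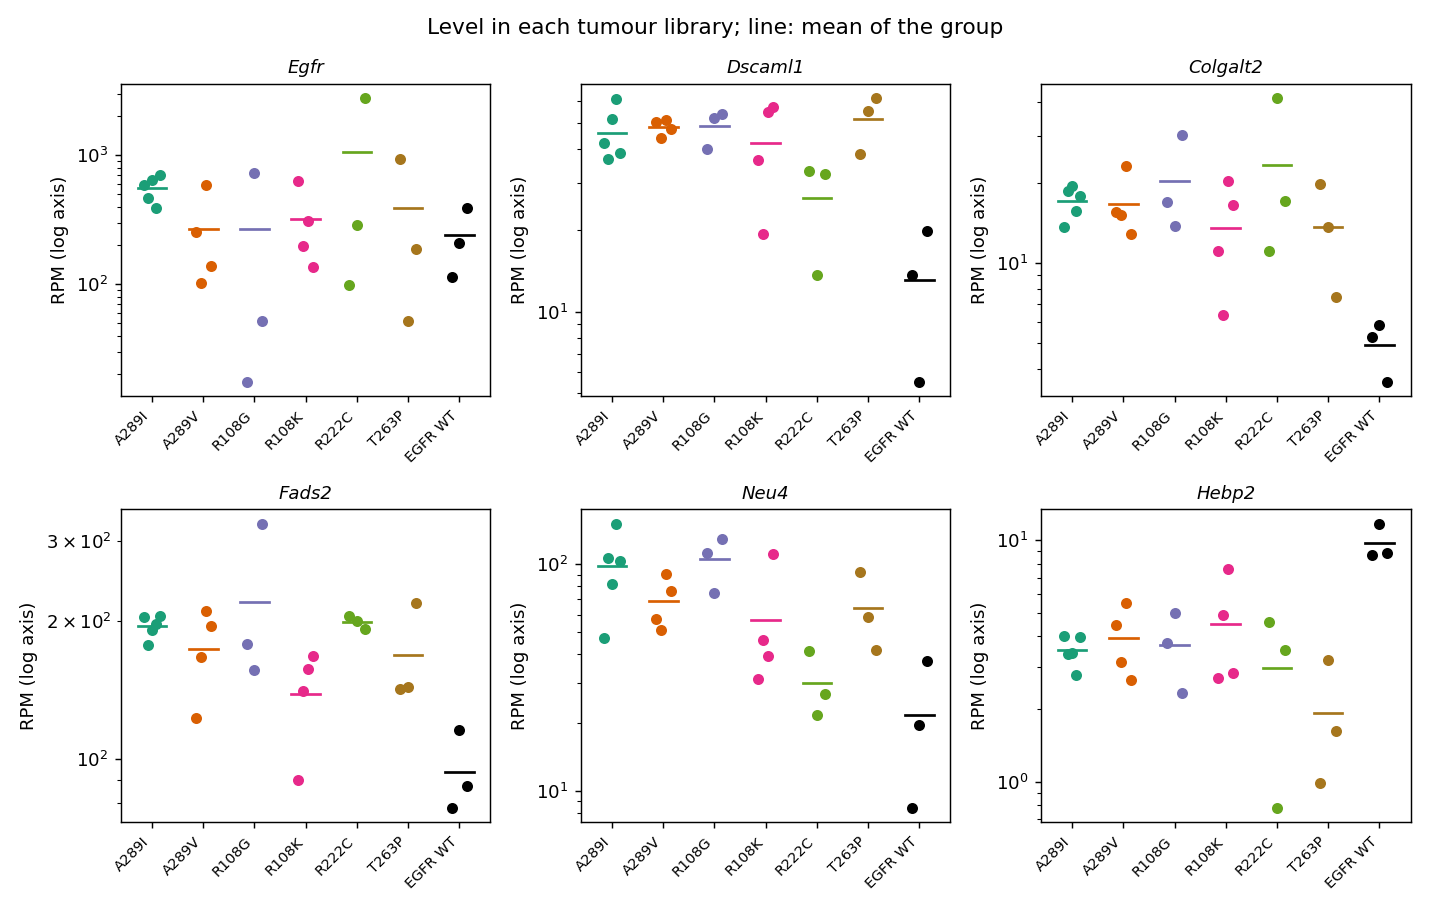
Level of 6 genes in each of the 25 libraries on log axes of RPM, by group, with the line at the mean of the group. Colgalt2 lies between 6.37 and 41.5 RPM in the variants, above every wild-type EGFR library, and Hebp2 below every one, while Egfr overlaps throughout.

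The other genes whose smallest difference in any variant was among the 6 largest were Col9a3, Acan, Zfhx4 and Ttr. Col9a3, a chain of collagen IX, ran from 54.6 through 158 to 487 RPM in the variants, against 36.9, 41.0 and 92.5 RPM in wild-type EGFR (log2 difference 1.63 ± 0.51 SE, limma adjusted p = 0.663). Acan, the proteoglycan aggrecan of cartilage and perineuronal nets, had 0.854 to 540 RPM in the variants, against 6.50, 1.56 and 73.7 RPM in wild-type EGFR. Its difference of 1.92 ± 1.15 was 0.85 without wild-type EGFR library 2. It turned to -0.81 against wild-type EGFR library 3 alone and -0.51 with numbers from 20 to 37 alone. Zfhx4, a zinc finger homeobox factor, differed by 1.43 ± 0.50, with 0.981 to 23.8 RPM in the variants, against 1.40 to 4.07 RPM in wild-type EGFR. Ttr encodes transthyretin, which the choroid plexus makes in bulk. It ran from 0.250 to 1335 RPM in the variants with a median of 6.85, against 0.481, 0.839 and 0.390 RPM in wild-type EGFR. Of the 22 variant libraries 19 lay above all 3 and 2 below all 3, and the difference was 3.55 ± 1.80 (limma adjusted p = 0.87).

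The higher genes of oligodendrocyte precursors included Neu4, a sialidase. It ran from 21.5 through 66.8 to 151 RPM in the variants, against 8.42, 19.4 and 37.3 RPM in wild-type EGFR. Of the 22 variant libraries 19 lay above all 3, and the log2 difference was 1.74 ± 0.46 (SE, limma adjusted p = 0.452). It was 0.62 in R222C and 1.39 to 2.42 in the other variants. Only the weighted limma fit called it (adjusted p = 0.0256; edgeR 0.369, DESeq2 0.0578), and it was 1.69 with numbers below 20 and 0.49 with numbers from 20 to 37. Over the OPC list 13 of 17 genes were higher (median 0.43). The median was 0.11 without wild-type EGFR library 1 and 0.67 without library 3, and it was -0.16 against library 3 alone. Ptprz1, a receptor phosphatase gene of the same list, differed by -1.40 ± 0.40 (adjusted p = 0.545), with 382 to 1137 RPM in the variants, against 7590, 1694 and 726 RPM in wild-type EGFR. It was -0.48 without wild-type EGFR library 1 and turned to 0.14 against library 3 alone.

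Most genes that edgeR called lower in the variants were high in a single wild-type EGFR library. Among edgeR's 49 lower calls, 47 were highest in 1 wild-type EGFR library at 2 or more times the next of the 25 libraries, and 32 at 4 or more times. The highest library was wild-type EGFR library 1 in 9 of the 49 genes, library 2 in 22 and library 3 in 18. This grouping, the genes named from it and the positions below were chosen after the values were seen. Hydin, a gene of motile cilia, had at most 2.20 RPM in the variants, against 0.481, 564 and 0.390 RPM in wild-type EGFR. Gucy2f, a guanylate cyclase of photoreceptors, had at most 8.14 RPM in the variants, against 0.120, 1273 and 0.780 RPM. Bcl2, an inhibitor of apoptosis, had at most 24.9 RPM in the variants, against 21.7, 595 and 7.87 RPM in wild-type EGFR. In each of these only wild-type EGFR library 2 was high, and the limma difference of Hydin was 0.14 without it.

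**Figure D3:**
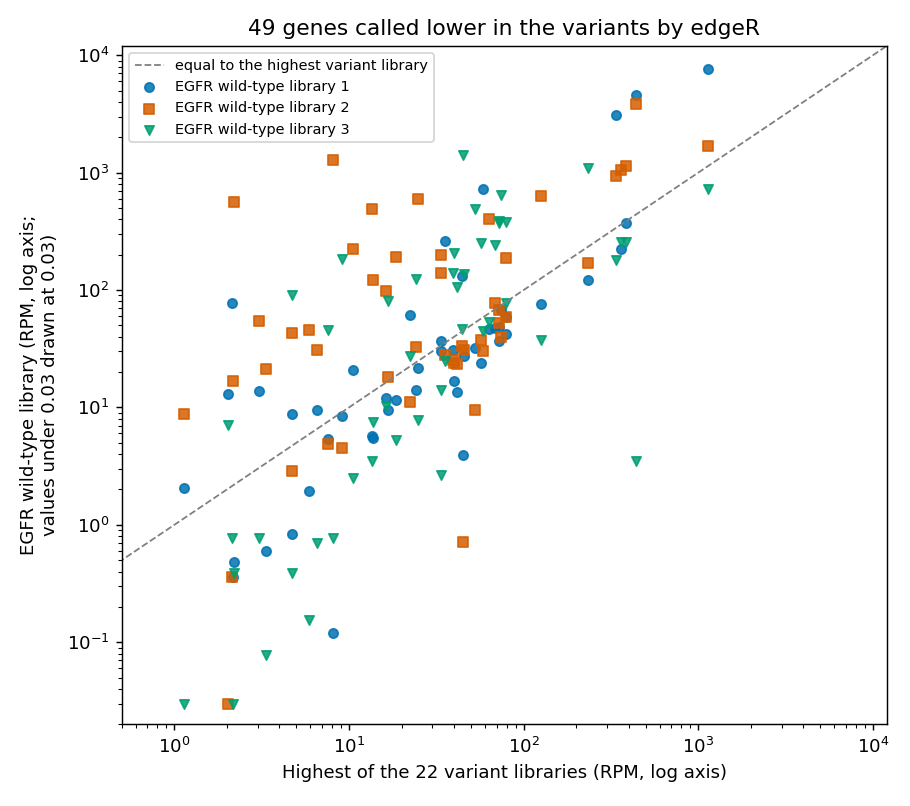
Level in each wild-type EGFR library against the highest of the 22 variant libraries, in RPM on log axes, for the 49 genes edgeR called lower in the variants (3 points per gene). For most genes 1 wild-type EGFR library lies far above the dashed line of equality and the other 2 at or below it.

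Some of these genes are neighbours. Of 30 genes tested on chromosome 16 between 43 and 51 Mb, edgeR called 8 lower, against 49 of 15660 over all genes (0.313%). Among the 19 genes there that averaged 10 RPM or more, 17 were over 2-fold above the variant median in library 3, with a median log2 difference of 1.98, against 0.33 in library 2 and -0.18 in library 1. Sidt1 in that stretch had at most 45.02 RPM in the variants, against 3.97, 0.719 and 1404 RPM in wild-type EGFR. On chromosome 6 between 12 and 36 Mb, edgeR called 9 of 90 tested genes lower, among them Met, Capza2, St7 and Ptprz1. There 40 of 65 genes that averaged 10 RPM or more were over 2-fold above the variant median in wild-type EGFR library 2 and 14 in library 1. The variant libraries had medians of -0.22 to 0.31 over these genes. Met ran from 1.99 through 10.5 to 437 RPM in the variants, and its log2 difference of -4.63 ± 1.53 (limma adjusted p = 0.692) was 1.95 against wild-type EGFR library 3 alone. The 3 mCherry tumours had 4.98, 6282.5 and 14.6 RPM of Met. DNA copy number was not measured here and its part in these stretches was not tested.

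Genes high in 1 library were not a feature of wild-type EGFR alone. Over all genes tested, 198 (1.26%) reached at least 10 RPM in 1 of the 25 libraries and 4 times the next. A variant library held 0 to 21 of them, with a median of 6.5, against 6, 19 and 16 in the wild-type EGFR libraries. The difference did not pass (exact permutation test over 2300 arrangements, two-sided p = 0.122). With 3 wild-type EGFR libraries this test could miss a real difference, so whether they held more such genes is not settled. In a comparison of 22 libraries with 3, a gene raised in 1 variant library moves its group mean little and a gene raised in 1 wild-type EGFR library moves it much.

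Several of the 12 lower genes of smallest p rested largely on 1 or 2 wild-type EGFR libraries. Morc1, a chromatin ATPase of the germ line, had at most 10.6 RPM and a median of 0.160 in the variants, against 20.8, 225 and 2.49 RPM in wild-type EGFR. Its difference was -3.94 ± 0.81 (SE, limma adjusted p = 0.231), -2.38 without wild-type EGFR library 2 and -1.05 against library 3 alone. Capza2, of the actin capping protein, spanned 157 to 336 RPM in the variants, against 3070, 936 and 179 RPM in wild-type EGFR (-1.82 ± 0.38). Nts, the neuropeptide neurotensin, had at most 3.07 RPM in the variants, against 13.7, 54.5 and 0.780 RPM (-2.26 ± 0.52). Capza2 was at -0.85 without wild-type EGFR library 1 and Nts at -1.11 without library 2. Both reversed against wild-type EGFR library 3 alone, to 0.34 and 0.41. Epha3, an ephrin receptor, had at most 4.72 RPM in the variants, against 8.78, 2.88 and 91.2 RPM in wild-type EGFR (-2.14 ± 0.53). Its difference was -0.84 without wild-type EGFR library 3.

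In the other genes of the 12, 17 to 22 of the 22 variant libraries lay below all 3 wild-type EGFR libraries, and 19 did for Morc1. Ccl6, Rpf1 and Tinagl1 were also highest in 1 wild-type EGFR library at 2 or more times the next library. Hebp2, a haem-binding protein gene on chromosome 10 (18539498 to 18546076), ran from 0.781 through 3.39 to 7.62 RPM in the variants, against 8.66, 11.7 and 8.89 RPM in wild-type EGFR. The groups did not overlap, and the log2 difference was -1.33 ± 0.32 (SE, limma adjusted p = 0.402; edgeR 0.0974, DESeq2 0.0834). It was -1.18 with numbers below 20, -1.34 with numbers from 20 to 37, and between -1.05 in R108K and -1.93 in T263P. Tspan12, a tetraspanin of Norrin signalling, spanned 27.1 to 86.6 RPM in the variants, against 112, 100.3 and 75.8 RPM in wild-type EGFR (-1.04 ± 0.26). It lies on chromosome 6 (21771395 to 21852515), within the stretch from 12 to 36 Mb described above. Cd1d1, which presents lipid antigens to T cells, had 3.83 to 20.7 RPM in the variants, against 26.96, 18.6 and 27.8 RPM in wild-type EGFR (-1.24 ± 0.33). The chemokine gene Ccl6 had a median of 4.97 RPM in the variants, against 11.9, 99.0 and 10.4 RPM in wild-type EGFR (-1.88 ± 0.45), and the difference was -0.87 without wild-type EGFR library 2. Tinagl1, a matrix glycoprotein (-2.29), Hn1 (-1.07), Rpf1 of ribosome assembly (-1.06) and Abracl (-1.15) made up the 12. Rpf1 was at -0.49 without wild-type EGFR library 1. Their limma adjusted p lay between 0.415 and 0.452. Of the lower genes, all 11 that could be tested with numbers below 20 alone kept their sign there, and 10 of 12 did with numbers from 20 to 37. The genes were picked by p and sign over these same libraries, so these counts too are a description. Col6a5, a collagen VI chain named for its smallest difference in any variant, ran from 0 through 0.743 to 43.3 RPM in the variants, against 60.8, 2.04 and 26.9 RPM in wild-type EGFR (-2.95 ± 0.87).

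Gene lists for glial, neuronal, immune and signalling functions were described by how many of their members had a higher mean in the variants and by their median difference, against 52.4% and 0.02 over all 15660 genes. No member of any of the 29 lists passed with limma, so the counts below are of means and not of calls.

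Glial and neuronal lists lay on the higher side. All 18 astrocyte genes had higher means in the variants, with a median difference of 0.82, and 7 were higher in all 6 variants (13% over all genes). Aldoc, the brain form of aldolase, ran from 157 through 637 to 845 RPM in the variants, against 288.7, 265 and 338 RPM in wild-type EGFR, and 21 of 22 variant libraries lay above all 3 (0.94 ± 0.32 SE, limma adjusted p = 0.717). Atp1b2, a sodium pump subunit of glia, was at 0.92 ± 0.31. All 17 genes of myelinating oligodendrocytes had higher means, with a median difference of 1.02, and 5 were higher in all 6 variants. Averaged over its members on log2(RPM + 1), the list stood at 5.43 in R222C and 5.98 to 7.46 in the other variants, against 5.29, 5.65 and 5.74 in wild-type EGFR. Fa2h, which makes the hydroxylated fatty acids of myelin, spanned 17.5 to 134 RPM in the variants, against 11.7, 13.4 and 66.2 RPM in wild-type EGFR (1.11 ± 0.48). It turned to -0.43 against wild-type EGFR library 3 alone. Enpp6, of newly formed oligodendrocytes, was at 1.96 (unadjusted p = 0.0603), with -0.20 in R222C. Of the 25 neuron genes 22 had higher means (median 0.75), such as the synapsin gene Syn2 at 1.14 ± 0.59 and the neurofilament gene Nefl at 1.30 ± 0.78, but only 2 of the 25 were higher in all 6 variants. The mean of the neuron list was 4.64 in R108K, 4.44 in R222C and 4.15 in T263P, each below 2 of the 3 wild-type EGFR libraries (5.73, 3.57 and 4.75). Without wild-type EGFR library 2 the median difference was 0.10 over the neuron list and 0.51 over the astrocyte list, and Syn2 and Nefl were at 0.50 and 0.78. The astrocyte and myelin medians were 0.45 and 0.69 against wild-type EGFR library 3 alone and 0.996 and 1.07 without it.

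Division genes lay on the lower side. All 30 cell cycle genes had lower means in the variants, with a median difference of -0.45, and 9 were lower in all 6 variants (12.9% over all genes). Pcna, the sliding clamp of DNA replication, ran from 78.8 through 140 to 228 RPM in the variants, against 218, 206 and 183 RPM in wild-type EGFR. Of the 22 variant libraries 19 lay below all 3, and the difference was -0.51 ± 0.24 (SE, limma adjusted p = 0.87). Nusap1, a protein of the mitotic spindle, was at -0.78 ± 0.36. The mean of the list on log2(RPM + 1) ran from 4.54 through 5.62 to 6.71 in the variants, against 6.37, 6.31 and 5.92 in wild-type EGFR. It was lowest in A289V, with 5.11 ± 0.49 (SD, n = 4), while the means of T263P (6.31), R108K (6.08) and R108G (5.95) lay within the range of wild-type EGFR. The neuron, astrocyte and myelin lists, described above, moved the opposite way, and their part in the lower division genes was not tested. Which cells, of the tumour or of the tissue around it, expressed those markers was not measured. The list median was -0.61 without wild-type EGFR library 3 and -0.15 against it alone.

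**Figure D4:**
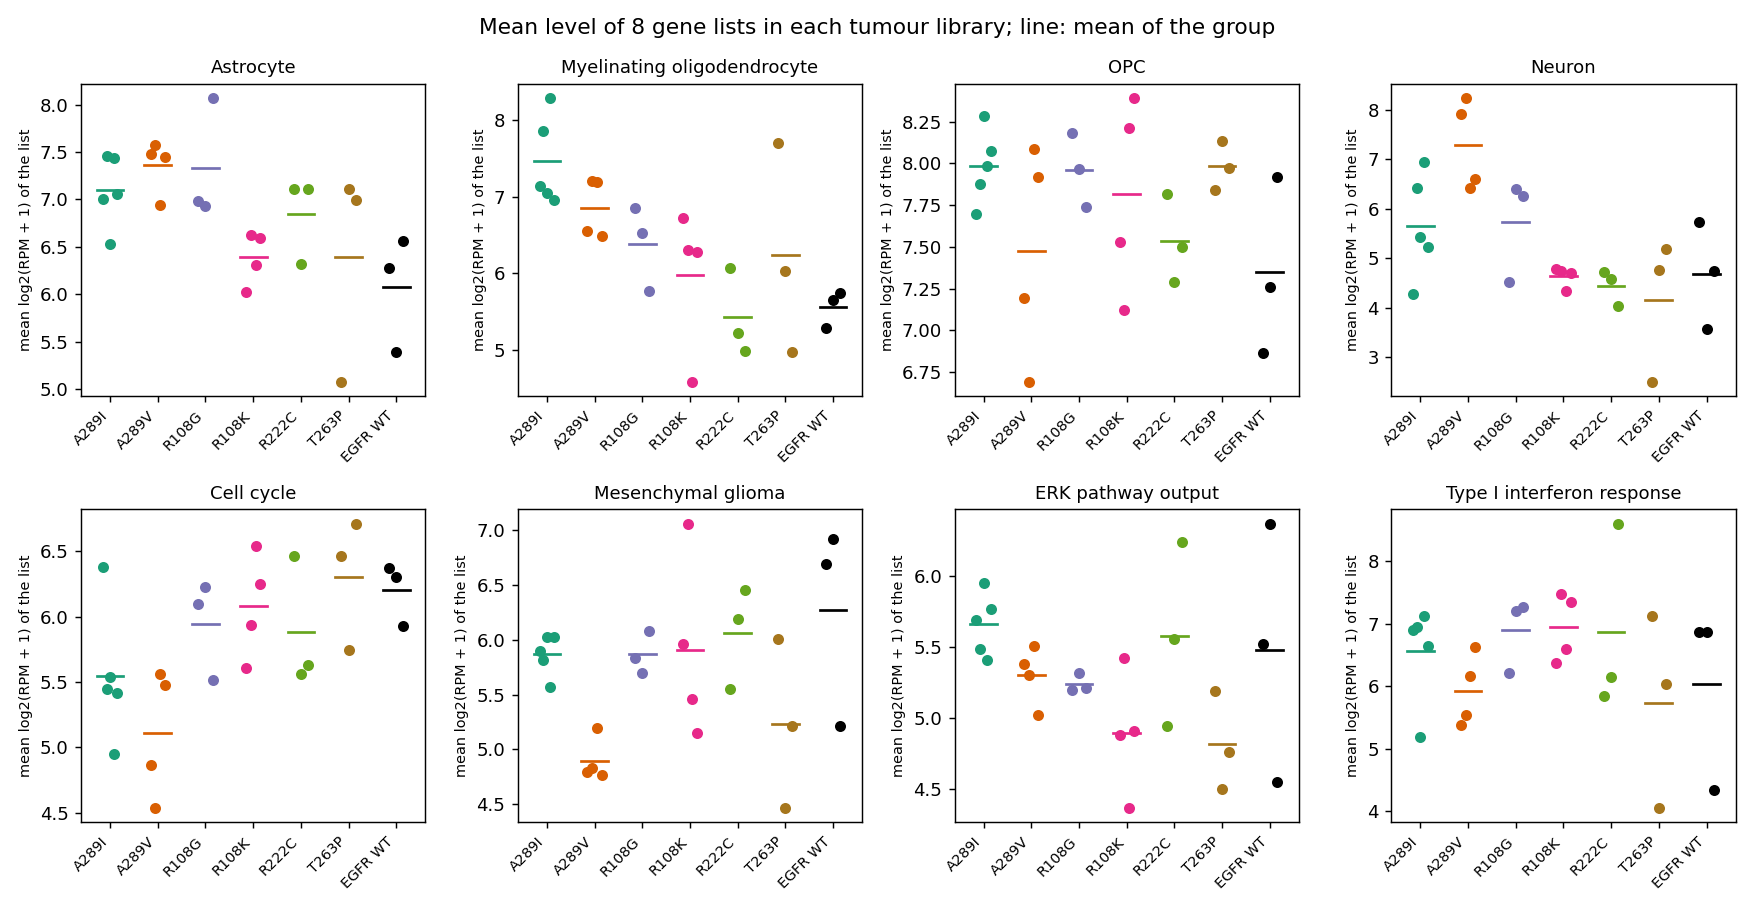
Mean log2(RPM + 1) of 8 gene lists in each of the 25 libraries, by group, with the line at the mean of the group. Wild-type EGFR libraries lie between 5.29 and 5.74 for myelin genes, where 4 variant libraries are lower still, and between 5.92 and 6.37 for cell cycle genes. Wild-type EGFR library 3 lies below the other 2 wild-type EGFR libraries for the interferon (4.35) and mesenchymal (5.22) lists. In both it is within the range of the variant libraries (4.06 to 8.60 and 4.47 to 7.06).

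The directions of mesenchymal, macrophage and interferon genes differed between wild-type EGFR library 3 and the other 2. All 20 mesenchymal glioma genes had lower means in the variants (median -0.61), and the median was -0.32 without wild-type EGFR library 1 or 2, -1.21 without library 3 and 0.55 against it alone. S100a10, the partner of annexin A2, had 22.1 to 208 RPM in the variants with a median of 80.7, against 245, 315 and 106 RPM in wild-type EGFR (-1.41 ± 0.49 SE, limma adjusted p = 0.774). Anxa1, an annexin of resolving inflammation, was at -1.54 ± 0.59. Of the 18 macrophage and monocyte genes 5 had higher means (median -0.34). The median was -0.71 without wild-type EGFR library 3, -0.16 without library 1 and 0.60 against library 3 alone. Arg1, arginase of myeloid cells, had at most 31.4 RPM in the variants, against 37.1, 159 and 0.0780 RPM in wild-type EGFR (-2.40 ± 1.03, and -0.85 without wild-type EGFR library 2), and the beta-glucan receptor gene Clec7a was at -1.09 ± 0.51. Of the 20 interferon genes 18 had higher means (median 0.41). That median was 2.40 against wild-type EGFR library 3 alone and -0.48 without it. Oas2, an antiviral synthetase gene, was at 1.48 ± 0.67 and its relative Oasl2 at 1.11 ± 0.65.

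Genes of the EGFR pathway itself lay on both sides of 0. Of the 4 receptors of the family 2 had higher means, and Erbb2, Erbb3 and Erbb4 were at -0.39 ± 0.46, -0.53 ± 0.65 and 0.44 ± 0.38 (SE, limma adjusted p = 0.902, 0.905 and 0.874). Of the 9 EGF family ligands that could be tested 5 had higher means, with a median of 0.02, which was -0.15 without wild-type EGFR library 3 and 0.33 without library 2. Areg, amphiregulin, had at most 8.42 RPM in the variants with a median of 0.427, against 8.06, 4.55 and 0 RPM in wild-type EGFR (-0.95 ± 0.60). Nrg3, a neuregulin of neurons, was at 1.04 ± 0.77. Of the 20 genes that ERK signalling is known to induce, 4 had higher means, with a median of -0.20, which turned to 0.18 without wild-type EGFR library 2. It was -0.58 without library 3 and 0.68 against library 3 alone. Spred1, a feedback inhibitor of RAS, was at -0.37 ± 0.22, with 88.0 to 209 RPM in the variants, against 171, 218 and 144 RPM in wild-type EGFR. The AP-1 gene Fosl1 was at -0.57 ± 0.35, or -0.0088 without wild-type EGFR library 2. It was near the floor, with a median of 0.198 RPM in the variants, against 0.722, 3.36 and 0.0780 RPM in wild-type EGFR (35 reads in all). Of 18 neural stem and progenitor genes 9 had higher means (median 0.00), and Sox11 and Nes, of immature neural cells, were at -1.14 ± 0.41 and -1.08 ± 0.47, or -0.44 and -0.64 without wild-type EGFR library 2. Cdkn2a, a tumour suppressor gene of the RB and p53 pathways, ran from 19.3 through 123 to 365 RPM in the variants, against 211, 466.2 and 80.1 RPM in wild-type EGFR (-0.78 ± 0.54, limma adjusted p = 0.874), and was at -0.17 without wild-type EGFR library 2. Of 22 other receptor tyrosine kinases 13 had higher means (median 0.22, or 0.11 without wild-type EGFR library 3).

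Differences among the 6 variants did pass a test. An F-test among the variant means called 1526 of 15660 genes (9.74%), of which 1140 were highest in A289V. Among them were 19 of the 25 neuron genes. All A289I and R108G libraries have numbers above 37, and all R222C and T263P libraries have numbers from 20 to 37. Variant and library number range can therefore not be fully told apart in this test. The 8 genes of smallest p, none of them on any of the 29 lists, were Nrn1, Vgf, Sv2a, Ak5, Mfsd4, Lppr2, Gjb2 and Clstn2. Nrn1, a neurotrophic protein, was 191 ± 106 RPM in A289V (SD, n = 4), 66.7 ± 33.9 RPM in A289I (n = 5), 46.5 ± 6.44 RPM in R108G (n = 3), 30.9 ± 15.3 RPM in R222C (n = 3), 18.1 ± 5.59 RPM in R108K (n = 4) and 10.7 ± 5.51 RPM in T263P (n = 3), limma adjusted p = 0.00674. Sv2a, of synaptic vesicles, was 284 ± 135 RPM in A289V and 28.9 ± 7.75 RPM in R222C. Vgf, a secreted neuropeptide precursor, split the variants into A289I, A289V and R108G, at 146 to 188 RPM, and R108K, R222C and T263P, at 16.8 to 25 RPM. Gjb2, a connexin of the meninges and of some glia, was above wild-type EGFR in all 6 variants, from 0.50 in R108K to 2.53 in A289V.

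The neuron list was also highest in A289V. Its mean was 7.91, 8.24, 6.42 and 6.60 in A289V libraries 1 to 4, against 8.58 and 8.55 in normal cortex, 2.51 to 6.93 in the other variants and 5.73, 3.57 and 4.75 in wild-type EGFR. The call count rested on A289V libraries 1 and 2. It was 5 without library 1, 16 without library 2 and 1 without both, while it was 1051 to 1895 without any other single variant library. With the neuron mean as a covariate no gene was called, and without the A289V group 1 gene was. How much neighbouring cortex each sample held was not measured.

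**Figure D5:**
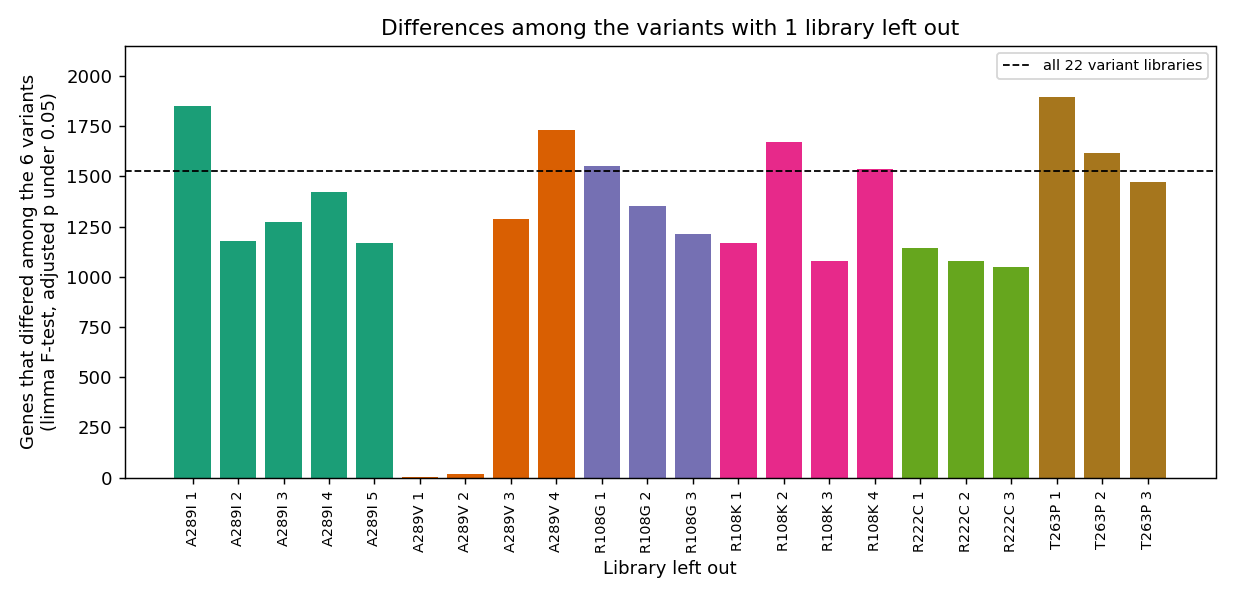
Number of genes that differed among the 6 variants (limma F-test, adjusted p under 0.05) with each of the 22 variant libraries left out in turn; the dashed line is the count with all of them, 1526. The count falls to 5 and 16 without A289V libraries 1 and 2 and stays between 1051 and 1895 without any other library.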

How the data were processed

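Gene expression was measured by RNA-seq in 30 samples, of which the 22 EGFR variant and 3 wild-type EGFR tumours are compared here. The authors deposited 1 normalised signal per gene and library for 24421 genes. The submitters' processing notes list STAR 2.5.0a, DESeq2 1.20.0, FastQC and mm10 and give no order. The tables are named RPM, and the tests were laid out on that basis, but the deposited signal proved to be a count divided by 1 size factor per library: at least 99.9944% of the values in each library came out as whole reads within 0.05 of a read. The values were divided by 10.2638, so that the library totals average 1000000, and are called RPM. A spreadsheet had turned some gene names into dates (25 such names, 2 of them standing for 2 genes each), which were kept as given. One read was 0.0387 to 0.383 RPM, which limits the precision of low values.

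The 15660 genes that reached 1 RPM in 3 or more of the 25 libraries were tested on log2(RPM + 1) with limma 3.58.1 in R 4.3.3 (2 groups, eBayes with trend and robust, two-sided, Benjamini-Hochberg adjustment over all genes, threshold 0.05). Fold changes on this scale understate the change of low genes. The F-test used the 22 variant libraries. The recovered reads went to DESeq2 1.42.0 (Wald test) and to the quasi-likelihood test of edgeR 4.0.16. DESeq2 gave no adjusted p to 18 of edgeR's calls. The fits were also run on simulated counts in which every gene had the same dispersion and no library was odd. Such counts cannot show how the fits treat a gene that is high in 1 library. Positions come from GENCODE M21 (15080 genes) and promoters from RefSeq. Named were the 12 genes of smallest p in each direction with 1 sign in all 6 variants (the rule takes passing genes first, and smallest p filled the places because none passed), the 6 of largest smallest difference, 8 of the F-test, 2 members of each of 14 lists, and Egfr, Met, Neu4 and Cdkn2a, with Erbb3 added to complete the receptor family; 1 named list member is not reported here. The comparison, the 29 lists and these rules were chosen with earlier results of these data known. Alternatives were another pseudocount, filters, TMM rescaling, library weights, 9 group means, library number ranges, a neuron covariate, and groups or libraries left out. Summaries were made in Python 3.11.15 with pandas 2.3.3, scipy 1.17.1 and numpy 2.4.6, and drawn with matplotlib 3.10.9.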

Additional observations from a re-analysis of the deposited data

Results flagged for a closer look

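Of 207 tests for a library far from the rest of its variant group, 9 found one, about what chance gives at 1 in 20. All 9 lay in A289I, A289V or R108K, the variants with more than 3 libraries. The flags do not speak for R108G, R222C and T263P. In R222C, for example, Egfr was 2790 RPM in library 3, against 98.4 and 287 RPM in libraries 1 and 2. High libraries were Fam43a in A289V library 2 (52.3 RPM), Zfhx4 in A289I library 1 (14.5 RPM), Col6a5 in R108K library 3 (43.3 RPM), Gjb2 in R108K library 1 (2.30 RPM), Fosl1 in A289I library 5 (2.19 RPM) and Pcna in A289I library 1 (178 RPM). Low libraries were Usp54 in A289I library 5 (38.3 RPM), Sox11 in R108K library 1 (24.5 RPM) and Clec7a in R108K library 3 (20.8 RPM).

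The difference from wild-type EGFR was unequal among the 6 variants for 16 of the named genes, by limma's F-test over all genes, which called 9.74% of the genes tested. The first 8 given here were named for their small p in this same test, so they do not count as a share. The adjusted p was 0.00674 for Nrn1 and Vgf, 0.00756 for Sv2a and 0.0103 for Ak5, Mfsd4, Lppr2, Gjb2 and Clstn2. It was 0.0134 for S100a10, 0.0137 for Areg, 0.0226 for Nefl, 0.0267 for Nrg3, 0.0319 for Syn2, 0.0324 for Cdkn2a, 0.0443 for Neu4 and 0.0477 for Abracl. Among these, Neu4 and Abracl kept 1 sign in all 6 variants, as did Gjb2, Syn2, Cdkn2a and S100a10. Neu4 ran from 29.9 ± 10.3 RPM in R222C to 105.5 ± 27.8 RPM in R108G (SD, n = 3 each), against 21.7 ± 14.6 RPM in wild-type EGFR (n = 3).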

How the results depend on the processing

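In 15 limma settings (pseudocount 0.1, no filter, 5 RPM, TMM, 9 group means, range term, numbers below 20 alone, neuron covariate, 3 low-Egfr or 2 neuron-rich libraries left out, or any 1 variant but R222C) the pooled comparison called 0 higher and 0 lower genes, with 407 to 1391 at an unadjusted p under 0.05. Calls were 2 higher and 49 lower with edgeR, 15 and 23 with DESeq2 (13 and 23 with 1 direction in all 6 variants), 17 and 17 with library weights, 0 and 17 with numbers 20 to 37 alone, 1 and 22 without both wild-type EGFR libraries below 20, and 1 and 0 without R222C. Leaving out 1 library gave 0 to 6 higher and 0 to 14 lower, the most without wild-type EGFR library 3, and 0 without 21 of the 25. DESeq2's higher calls include 2 Y-linked genes, read in 8 of 22 variant and 0 of 3 wild-type EGFR libraries. The labels give no sex, and its part in the pooled comparison was not tested.

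The F-test count of 1526 was 995 without a filter, 3753 with DESeq2, 5899 with library weights, 1 without A289V libraries 1 and 2, 0 with the neuron covariate (1294 at an unadjusted p under 0.05), 1 without A289V, 653 without R108K, and 5 to 1895 with 1 library left out. It could not be fitted with the range term, because only A289I and R108G have numbers above 37 and they have no others.

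Of 1436 differences of the 69 named genes under other settings, 1393 kept their sign. Against numbers 20 to 37 alone, and without both wild-type EGFR libraries below 20, these reversed: Acan (-0.51 and -0.81), Capza2 (0.36 and 0.34), Nts (0.22 and 0.41), Met (1.08 and 1.95), Egfr (-0.64 and -0.55), Cdkn2a (0.40 and 0.53), Ptprz1 (0.22 and 0.14), Fa2h (-0.41 and -0.43), Sox11 (0.64 and 0.52), Arg1 (1.55 and 1.72), Clec7a (0.13 and 0.25), Anxa1 (0.26 and 0.39), Erbb3 (1.32 and 1.31) and Nrn1 (-1.03 and -0.66). The first also reversed Lppr2 (-0.094), the second Hydin (0.18), Areg (0.94), Fosl1 (0.33) and Vgf (0.85), and numbers below 20 alone Erbb4 (-0.34) and Oasl2 (-0.46). The neuron covariate reversed Nrn1 (-0.13), Sv2a (-0.0218) and Lppr2 (-0.21). Vgf was 0.0451 with edgeR, 0.0857 with DESeq2, 0.0216 without R108K and 0.00279 without T263P, against -0.29, and Lppr2 -0.0820 without A289V, against 0.19. With 1 library left out, 5 genes reversed: Hydin ran from -4.20 to 0.14, Egfr from -0.0925 to 0.79, Erbb3 from -1.45 to 0.12, Vgf from -0.86 to 0.43 and Lppr2 from -0.015 to 0.42. The causes were not tested.

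No paired analysis was possible because the labels give no replicate number shared between groups. With 3 wild-type EGFR libraries, 2 in one range of library numbers and 1 in another, range and tumour cannot be told apart within wild-type EGFR.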
